A study of Mus musculus with 30 samples.

Results

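Transcripts of 9 apoptosis genes were measured in 2 mouse tumor cell lines after treatment with an interferon or a STING agonist. The genes were taken as a named list, matched by symbol to the Ensembl identifiers of the counts: the death ligand Tnfsf10, the death receptors Fas and Tnfrsf10b, the IAP antagonist Xaf1, the BH3-only genes Bcl2l11 and Pmaip1, the effectors Bak1 and Bax, and the pro-survival gene Bcl2l1. All 9 were among the 49315 genes counted and among the 21138 with at least 10 reads combined, which were tested. The 24 bulk libraries formed 8 groups of 3: B16F10 and 6694c2 cells, each cultured for 24 h with vehicle, with IFNγ at 100 ng/mL, with IFNβ at 1000 U/mL or with STING agonist at 225 μg/mL. The composition of the vehicle is not given, and the source is labelled as tumor although the cells were in culture. B16F10 is a melanoma line, and 6694c2 is a pancreatic ductal adenocarcinoma (PDAC) line from female mice with p53+/floxed, Pdx-cre and YFP-floxed alleles. Pdx-cre acts in the pancreatic lineage, so the loss of a p53 allele was shared by all 4 groups of 6694c2. Both lines were labelled C57BL/6. Each line stands for 1 tumor model. The sources used here do not say whether the 3 libraries of a group came from separate cultures. The p-values therefore measure the spread between these libraries, which may be technical. The test shares its estimate of that spread among genes, so a p-value does not rest on the spread of 1 gene alone. Whole cultures were sequenced, so fewer cells with a transcript and less of it per cell cannot be told apart.

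Apoptosis is reached by 2 routes. In the extrinsic route a ligand such as TRAIL (Tnfsf10) or Fas ligand binds a death receptor, which assembles caspase-8 at the membrane. In the intrinsic route BH3-only proteins release or activate BAX and BAK, which permeabilise the outer mitochondrial membrane and are held back by pro-survival relatives such as BCL-XL (Bcl2l1). Interferons act through STAT and IRF transcription factors and are known to induce several death receptor and caspase genes in tumor cells, whereas p53 is a known activator of Fas, Tnfrsf10b, Bax and Pmaip1.

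Libraries held 15543131 to 32266795 reads on genes. The summed level of 10 melanocyte markers was 15400 to 19500 CPM (read counts scaled by TMM to a common library size) in B16F10 libraries and 19.9 to 137 in 6694c2 libraries, and that of 10 ductal epithelial markers was 15 to 137 and 12800 to 15100. Within B16F10 the melanocyte sum was 19300 to 19500 CPM with vehicle, 15900 to 16200 with IFNγ, 15400 to 16700 with IFNβ and 19000 to 19500 with STING agonist, and its part in the results was not tested. Reads of genes specific to the other line were present in every library, at 0.175 to 1.03% of their level in that line. This share was 0.823 to 1.03% in the B16F10 STING agonist libraries against 0.185 to 0.228% in B16F10 vehicle. In 6694c2 it was 0.618 to 0.697% with vehicle, 0.336 to 0.986% with IFNγ, 0.268 to 0.377% with IFNβ and 0.224 to 0.326% with STING agonist. The reads expected from the other line, computed from its vehicle level, are given beside some of the results that rest on few reads. For a gene that interferon raised in the other line, reads from the interferon libraries of that line would make this number larger. The interferon response genes Irf1, Ifit1, Isg15, Gbp2 and Cxcl10, used as a check, all rose with both interferons in both lines. Of 8 B-cell markers none was at 0 reads in any group, and their sum was 60.8 to 69.4 CPM in 6694c2 with IFNβ against 18.1 to 36.4 in the other 6694c2 groups. Most of that gap was Pax5, at 35.3 CPM against 1.33 in vehicle, and its part in the results was not tested. Of 8 T-cell and NK-cell markers 4 had enough reads to be tested, and these, 6 macrophage and leukocyte markers and 6 fibroblast markers each summed to 16.8 CPM or less in every library.

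The promoters of the 4 genes that rose over 2-fold with an interferon in 6694c2 are shown because sites bound by STAT and IRF factors can lie in such windows. They are RefSeq sequences of GRCm38.p6, from 250 bases before to 50 bases after the annotated start, 5′ to 3′ on the strand of the gene: Fas (chr19:34290409-34290708, plus strand), Tnfsf10 (chr3:27316827-27317126, plus strand), Xaf1 (chr11:72301379-72301678, plus strand) and Bak1 (chr17:27028578-27028877, minus strand). Capitals mark matches, on either strand, to TTCNNNGAA (a STAT site, GAS) or AANNGAAA (the core bound by IRF factors, chosen after the sequences were seen).
Fas: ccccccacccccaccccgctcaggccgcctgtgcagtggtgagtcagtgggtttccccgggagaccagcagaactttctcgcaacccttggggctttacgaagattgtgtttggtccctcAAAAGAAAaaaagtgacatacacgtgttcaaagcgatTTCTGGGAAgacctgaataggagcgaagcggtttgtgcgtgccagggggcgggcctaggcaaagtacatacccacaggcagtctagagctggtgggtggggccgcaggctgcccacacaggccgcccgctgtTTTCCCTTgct
Tnfsf10: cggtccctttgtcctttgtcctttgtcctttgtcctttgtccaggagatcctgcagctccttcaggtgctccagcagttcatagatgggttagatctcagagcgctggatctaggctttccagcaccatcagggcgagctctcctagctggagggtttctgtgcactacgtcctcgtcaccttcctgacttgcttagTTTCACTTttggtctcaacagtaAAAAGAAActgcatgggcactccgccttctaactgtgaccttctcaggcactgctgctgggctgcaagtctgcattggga
Xaf1: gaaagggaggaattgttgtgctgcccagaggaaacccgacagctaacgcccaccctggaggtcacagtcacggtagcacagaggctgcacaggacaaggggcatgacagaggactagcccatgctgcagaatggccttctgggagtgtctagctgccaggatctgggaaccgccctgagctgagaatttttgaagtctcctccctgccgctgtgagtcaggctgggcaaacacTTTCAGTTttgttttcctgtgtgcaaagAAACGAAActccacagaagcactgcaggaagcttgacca
Bak1: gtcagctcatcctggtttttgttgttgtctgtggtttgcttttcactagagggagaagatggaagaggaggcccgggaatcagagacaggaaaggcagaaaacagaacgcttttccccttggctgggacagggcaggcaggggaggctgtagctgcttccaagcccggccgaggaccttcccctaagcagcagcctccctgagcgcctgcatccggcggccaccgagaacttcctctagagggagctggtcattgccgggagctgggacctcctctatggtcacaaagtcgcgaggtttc
The match to TTCNNNGAA in Fas runs from base -93 to -85 relative to the start, and 8.3% of all 32851 promoters of this length hold one. Fas, Tnfsf10 and Xaf1 each hold 2 matches to AANNGAAA, which 23.9% of all promoters hold, and the Bak1 window holds none. That window lies wholly inside the span of the counted gene, which on the minus strand begins at 27029009. Bases upstream of that position were not read. The longer ISRE, searched as 2 copies of GAAA with 2 bases between them (3.44% of all promoters) and always overlapping a match to AANNGAAA, is in none of the 10 promoters read for Fas, Tnfsf10, Xaf1, Bcl2l11, Bak1, Bax and Bcl2l1. A single match to AANNGAAA is in 1 of the 2 Bcl2l11 promoters and in each of 2 of the 3 Bcl2l1 promoters, and Bax has none. No promoter of Tnfrsf10b or Pmaip1 was analysed here. These matches are descriptions of letters in a window.

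More of the 9 genes were called changed with the interferons than with the STING agonist. The 9 genes and the pathway lists used below were chosen with earlier results of these data known. Their counts beside the shares of all genes are therefore descriptions. A gene was called where edgeR's quasi-likelihood test gave it an adjusted p, over all 21138 genes, under 0.05. With IFNγ, 4 of 9 rose and 1 fell in B16F10, where 22.8% of all genes tested were called (12% higher, 10.8% lower). In 6694c2 7 of 9 rose and 0 fell with IFNγ, where 13.5% of all genes were called (7.89% higher, 5.66% lower). IFNβ gave 4 higher and 0 lower in B16F10 (24% of all genes called, 12.7% higher and 11.2% lower) and 7 higher and 0 lower in 6694c2 (18.2% called, 10.4% higher and 7.86% lower). The STING agonist gave 1 higher and 0 lower in B16F10 (3.46% called, 1.93% higher and 1.53% lower). In 6694c2 it gave 0 in either direction (0.36% called, 0.203% higher and 0.156% lower), where 2 of 9 had an unadjusted p under 0.05 and DESeq2 also called 0.

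Overlap of the libraries gave a similar order. In B16F10 all 3 treated libraries lay above all 3 vehicle libraries for 4 of 9 genes with IFNγ (17.7% of all genes), 5 with IFNβ (16.8%) and 1 with STING agonist (9.86%), and all lay below for 1 with IFNγ (16.6%) and 1 with STING agonist (9.49%). In 6694c2 all lay above for 8 of 9 with IFNγ (12.1%), 7 with IFNβ (13%) and 4 with STING agonist (7.24%). The median log2 fold change of the 9 genes was 0.24 with IFNγ, 0.34 with IFNβ and 0.13 with STING agonist in B16F10, and 0.62, 0.56 and 0.12 in 6694c2, beside medians of all genes from 0 to 0.02.

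**Figure D1:**
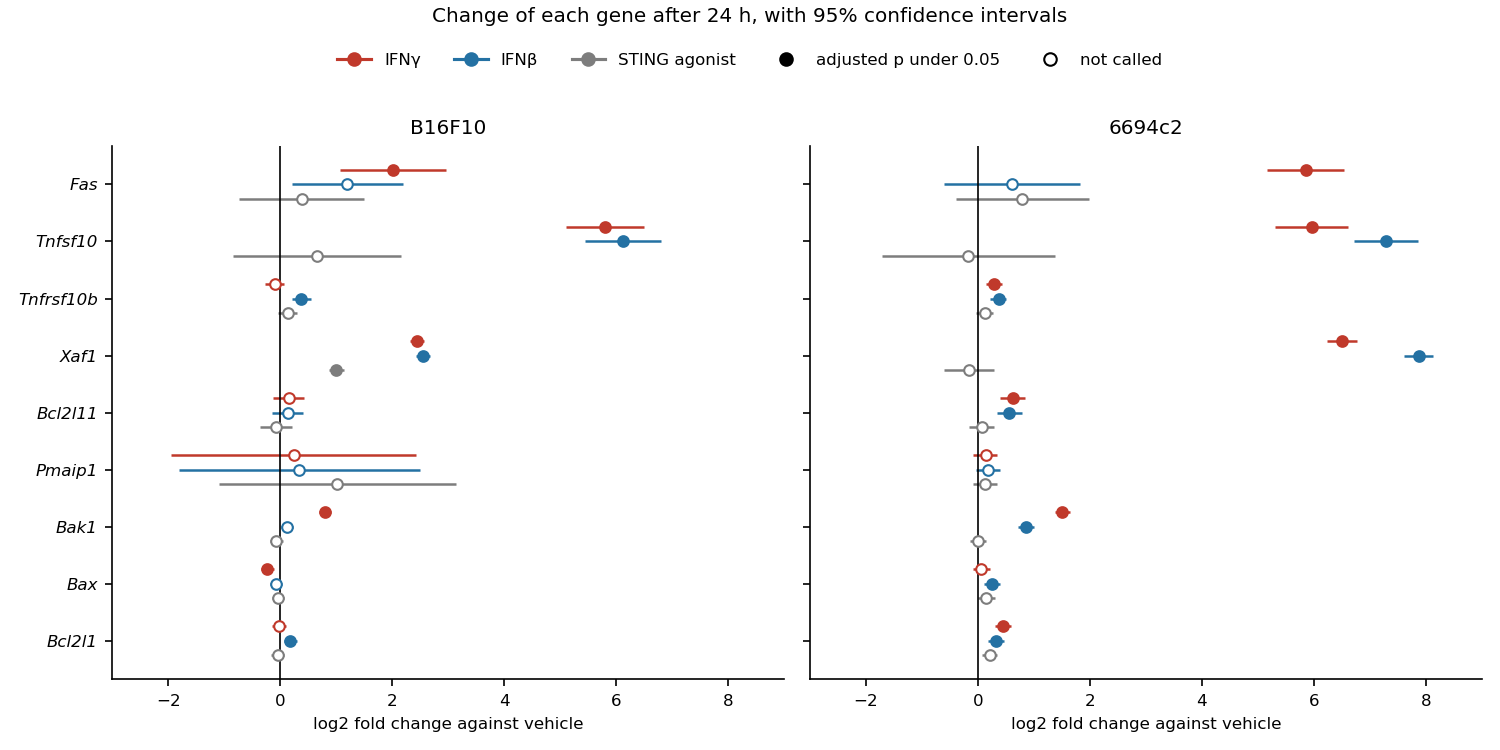
Log2 fold change against vehicle of each of the 9 genes (rows) in B16F10 (left) and 6694c2 (right), with 95% confidence intervals from edgeR. Filled points have an adjusted p under 0.05 and open points do not. Tnfsf10 and Xaf1 lie far to the right with both interferons in both lines, Fas with IFNγ lies at 5.86 in 6694c2 and 2.01 in B16F10, and all STING agonist points but Xaf1 in B16F10 are open.

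Tnfsf10, which encodes the death ligand TRAIL (ENSMUSG00000039304, chr3:27317028-27342427, plus strand), went from nearly no reads to clear expression with both interferons in both lines. In B16F10 it had 0, 0.12 and 0.117 CPM in the vehicle libraries (0, 3 and 3 reads), 4.84, 5.3 and 4.8 CPM with IFNγ, 7.14, 5.71 and 5.62 CPM with IFNβ, and 0.12, 0.13 and 0.159 CPM with STING agonist. The interferon libraries stood far above the others and the STING agonist libraries overlapped vehicle. In 6694c2 the values were 0.117, 0.167 and 0 CPM with vehicle (2, 3 and 0 reads), 6.28, 6.32 and 6.29 with IFNγ, 15.4, 16.2 and 15.3 with IFNβ, and 0.0394, 0.108 and 0.106 with STING agonist. The log2 fold changes were 5.80 (SE 0.354, adjusted p 1.02e-44) with IFNγ and 6.12 (SE 0.343, 5.53e-51) with IFNβ in B16F10. They were 5.96 (SE 0.322, 2.92e-19) with IFNγ and 7.29 (SE 0.278, 8.3e-25) with IFNβ in 6694c2. The vehicle groups held only 6 reads in B16F10 and 5 in 6694c2, of which 0.0145 and 0.0264 were expected from the other line. The sizes of these fold changes are therefore less certain than their direction. Without the second 6694c2 vehicle library those in 6694c2 were 6.62 with IFNγ and 7.94 with IFNβ. IFNβ gave 2.51 times the Tnfsf10 level of IFNγ in 6694c2 (log2 1.33, adjusted p 1.47e-10), and in B16F10 the same comparison was not called (log2 0.32, 95% confidence interval -0.03 to 0.67, adjusted p 0.268).

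Tnfrsf10b, the mouse TRAIL receptor (ENSMUSG00000022074, chr14:69767472-69784403, plus strand), was expressed in every library and changed by at most 1.29-fold against vehicle where called. In B16F10 it was at 23, 25.4 and 23.7 CPM with vehicle, 21.2, 23.4 and 23.2 with IFNγ, 31.4, 31.3 and 30.3 with IFNβ, and 23.7, 27.5 and 28.1 with STING agonist. Only the IFNβ libraries lay wholly above vehicle. In 6694c2 the values were 50, 50 and 49.7 CPM with vehicle, 59.6, 59.7 and 61.4 with IFNγ, 61, 63.5 and 63.8 with IFNβ, and 58.5, 52.6 and 51.1 with STING agonist, all of them above the vehicle libraries. IFNβ raised it 1.29-fold in both lines (log2 0.37, adjusted p 9.78e-05 in B16F10 and 0.000162 in 6694c2). With IFNγ it rose 1.22-fold in 6694c2 (log2 0.29, SE 0.0733, adjusted p 0.00447), while B16F10 gave a log2 fold change of -0.10 (95% confidence interval -0.27 to 0.07, adjusted p 0.501). The receptor stood far above its ligand in vehicle cells. Per kilobase of exon, Tnfrsf10b stood at 7.58 and Tnfsf10 at 0.015 CPM per kb in B16F10, and at 15.7 and 0.018 in 6694c2.

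Fas, the receptor of Fas ligand (ENSMUSG00000024778, chr19:34290659-34327770, plus strand), was near the limit of detection in vehicle cells of both lines and rose with IFNγ, most in 6694c2. There it had 0.35, 0.112 and 0.061 CPM with vehicle (6, 2 and 1 reads), 9.78, 10.7 and 10.5 CPM with IFNγ (176, 174 and 310 reads), 0.399, 0.136 and 0.221 with IFNβ, and 0.197, 0.541 and 0.176 with STING agonist. The 3 IFNγ libraries stood alone, and those of IFNβ and STING agonist overlapped vehicle. The IFNγ change was 57.9-fold (log2 5.86, SE 0.339, adjusted p 3.22e-18), and its log2 value was 6.82 without the first vehicle library, which held 6 of the 9 vehicle reads. With IFNβ the log2 fold change was 0.61 (95% confidence interval -0.61 to 1.83, adjusted p 0.591), and IFNβ against IFNγ gave a log2 difference of -5.25 (SE 0.288, adjusted p 6.29e-19). In B16F10 the values were 0.526, 0.16 and 0.156 CPM with vehicle (11, 4 and 4 reads), 1.17, 1.08 and 1.06 with IFNγ, 0.605, 0.652 and 0.606 with IFNβ, and 0.359, 0.433 and 0.265 with STING agonist. Fas rose 4.02-fold with IFNγ in B16F10 (log2 2.01, SE 0.48, adjusted p 0.000321), with a log2 value of 2.75 without the first vehicle library. The IFNβ libraries also lay above all B16F10 vehicle libraries, but the change was not called (log2 1.19, SE 0.506, adjusted p 0.0729). It was called without the first vehicle library, the highest of the 3 (log2 1.94, adjusted p 0.0126), and with edgeR's own expression filter (1.2, adjusted p 0.0459), and over all alternatives the adjusted p ran from 0.0126 to 0.296. Reads expected from the other line were 0.106 of 660 Fas reads in 6694c2 with IFNγ. They were 0.0935 of 9 in 6694c2 vehicle and 0.0266 of 19 in B16F10 vehicle.

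**Figure D2:**
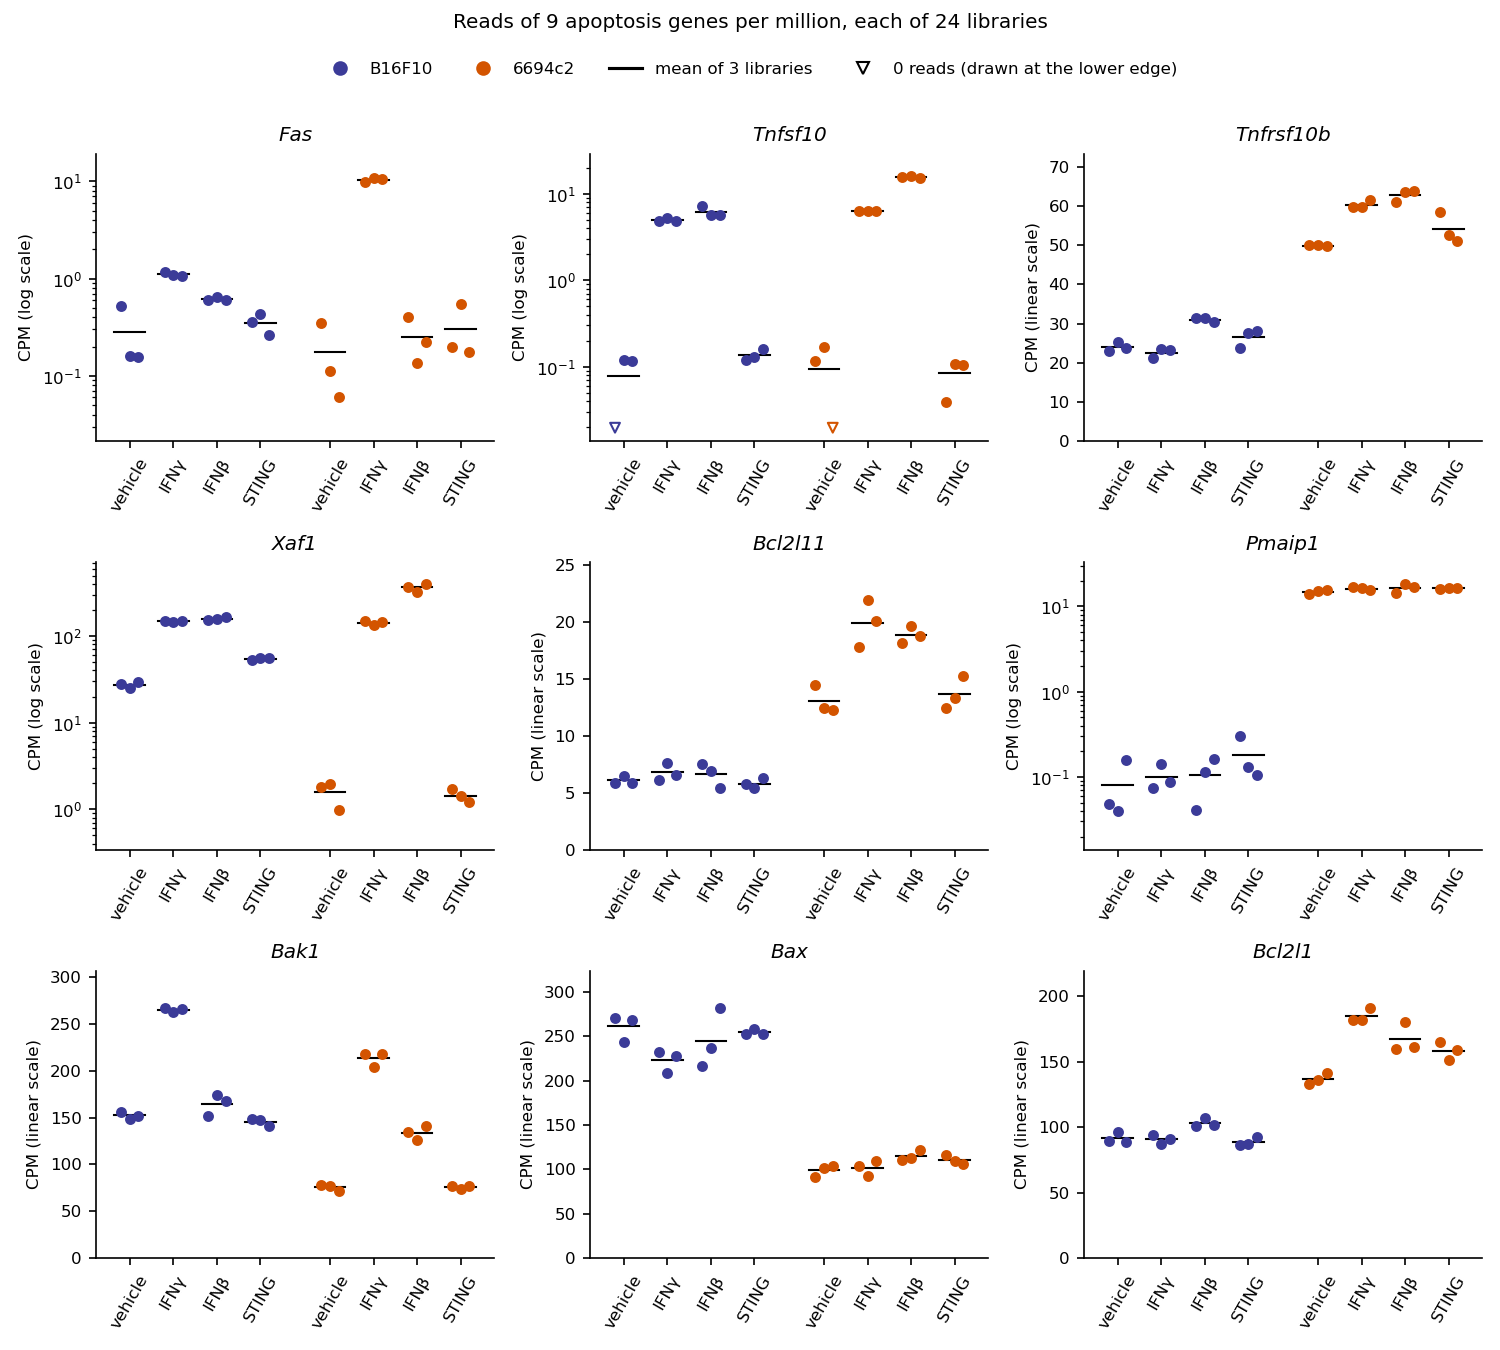
CPM of each of the 9 genes in every library, 3 points per group, B16F10 in blue and 6694c2 in orange, with the group mean as a black line; genes with a range over 10-fold have a log axis and the others a linear axis from 0. Open triangles at the lower edge are libraries with 0 reads. Fas and Tnfsf10 are low in all vehicle libraries, Xaf1 is low only in 6694c2 vehicle and STING agonist libraries, and Pmaip1 separates the lines in all treatments.

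Xaf1, an interferon-inducible antagonist of the caspase inhibitor XIAP (ENSMUSG00000040483, chr11:72301629-72313733, plus strand), rose with both interferons in both lines. In 6694c2 it was at 1.81, 1.95 and 0.975 CPM with vehicle (31, 35 and 16 reads), 151, 133 and 144 with IFNγ, 370, 324 and 398 with IFNβ, and 1.69, 1.41 and 1.2 with STING agonist. The IFNβ libraries were all above the IFNγ libraries, and those of STING agonist overlapped vehicle. The changes were 90.3-fold with IFNγ (log2 6.50, SE 0.129, adjusted p 3.3e-35) and 233-fold with IFNβ (log2 7.87, SE 0.127, adjusted p 1.75e-38), and IFNβ exceeded IFNγ by 1.37 on the log2 scale (SE 0.0787, adjusted p 3.23e-18). Of the 82 reads in 6694c2 vehicle, 11.1% were expected from B16F10 at its vehicle level. Reads from B16F10 interferon libraries, where Xaf1 was higher, would make that share larger. In B16F10 the gene was already at 27.8, 25.2 and 29.1 CPM with vehicle and reached 151, 147 and 148 with IFNγ and 154, 158 and 166 with IFNβ. These were 5.42-fold (log2 2.44, SE 0.0659, adjusted p 3.57e-130) and 5.84-fold (log2 2.55, SE 0.0658, adjusted p 4.6e-136). Starting levels in vehicle were lower in 6694c2 (log2 -4.10, SE 0.136, adjusted p 4.4e-27), yet the IFNγ levels of the lines overlapped, at 149 ± 2.22 CPM in B16F10 and 143 ± 8.83 CPM in 6694c2 (mean ± SD, n = 3). Xaf1 was also the 1 gene of the 9 that rose with STING agonist in B16F10, to 53, 55.8 and 55.7 CPM, 1.99-fold above vehicle (log2 0.99, SE 0.0681, adjusted p 2.64e-36). Reads expected from 6694c2 were 0.819 of 3224 there. The check genes Irf1, Ifit1, Isg15, Gbp2 and Cxcl10 rose in those libraries too, whereas with STING agonist in 6694c2 Ifit1 rose, Gbp2 fell and the other 3 were not called.

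The BH3-only genes Bcl2l11 and Pmaip1 differed more between the lines than between treatments. Bcl2l11 encodes BIM, which binds all pro-survival BCL2 proteins (ENSMUSG00000027381, chr2:128126038-128162547, plus strand). In 6694c2 it was at 14.5, 12.5 and 12.3 CPM with vehicle, 17.8, 22 and 20.1 with IFNγ, 18.2, 19.7 and 18.8 with IFNβ, and 12.5, 13.3 and 15.3 with STING agonist, so that both interferon groups lay above vehicle. It rose 1.54-fold with IFNγ (log2 0.62, SE 0.108, adjusted p 2.69e-05) and 1.47-fold with IFNβ (log2 0.56, SE 0.107, adjusted p 9.11e-05). B16F10 held 5.88, 6.5 and 5.87 CPM with vehicle, 6.16, 7.65 and 6.6 with IFNγ, 7.55, 6.94 and 5.42 with IFNβ, and 5.74, 5.42 and 6.26 with STING agonist, and all 4 groups overlapped. The log2 fold changes there were 0.15 with IFNγ (95% confidence interval -0.13 to 0.43) and 0.13 with IFNβ (-0.15 to 0.41), neither called.

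Pmaip1, which encodes NOXA, the BH3-only partner of MCL1 (ENSMUSG00000024521, chr18:66458604-66465550, plus strand), was expressed in 6694c2 and close to absent from B16F10. The 12 libraries of 6694c2 ranged from 13.9 to 18.4 CPM: 13.9, 15 and 15.5 with vehicle, 16.7, 16.2 and 15.6 with IFNγ, 14.3, 18.4 and 16.7 with IFNβ, and 15.8, 16.4 and 16.4 with STING agonist. The IFNγ and STING agonist libraries all lay above vehicle and the IFNβ libraries overlapped it. No treatment was called there, and the log2 fold changes of 0.14, 0.18 and 0.13 had 95% confidence intervals that ended at 0.35, 0.39 and 0.34. In B16F10 single libraries held 1 to 5 reads (0.0401 to 0.299 CPM), and the 4 groups held 6, 7, 8 and 10 reads over 3 libraries each, of which 2.26, 3.1, 4.14 and 7.68 were expected from 6694c2. At this depth no treatment difference was detectable in B16F10, where the IFNγ interval ran from -1.95 to 2.43. Between vehicle cells the gene was higher in 6694c2 by 7.37 on the log2 scale (SE 0.251, adjusted p 1.01e-26), a value that rests on 6 reads in B16F10 and was 8.19 without the third B16F10 vehicle library and 8.26 with the share of the other line subtracted.

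The 2 effectors responded differently. Bak1 encodes BAK, which resides on the mitochondrial membrane (ENSMUSG00000057789, chr17:27019810-27029009, minus strand), and it rose with IFNγ in both lines. B16F10 libraries were at 156, 149 and 152 CPM with vehicle, 267, 263 and 266 with IFNγ, 152, 174 and 168 with IFNβ, and 148, 147 and 141 with STING agonist. The IFNγ libraries stood above all others, and those of STING agonist lay just below vehicle, a difference that was not called (log2 -0.07, adjusted p 0.667). In 6694c2 the values were 77.6, 77.5 and 72.1 CPM with vehicle, 218, 204 and 218 with IFNγ, 135, 126 and 141 with IFNβ, and 76.7, 73.4 and 76.8 with STING agonist, an order of IFNγ over IFNβ over vehicle with no overlap. IFNγ raised Bak1 1.74-fold in B16F10 (log2 0.80, SE 0.0554, adjusted p 2.11e-36) and 2.85-fold in 6694c2 (log2 1.51, SE 0.0684, adjusted p 4.94e-22). IFNβ raised it 1.82-fold in 6694c2 (log2 0.86, SE 0.0678, adjusted p 8.48e-14), and in B16F10 the change was 0.12 (95% confidence interval 0.01 to 0.23, adjusted p 0.121; 0.16 and 0.0192 without the first IFNβ library). IFNβ was below IFNγ by a similar amount in both lines, with log2 differences of -0.68 (adjusted p 7.42e-28) and -0.65 (adjusted p 1.6e-10). Of the exonic bases of Bak1, 14.8% are shared with Ggnbp1 on the opposite strand, a gene with 8 to 56 reads per library.

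Bax, the cytosolic relative of BAK that moves to mitochondria (ENSMUSG00000003873, chr7:45461697-45466898, minus strand), changed by at most 1.19-fold where called. In B16F10 it was at 271, 244 and 269 CPM with vehicle, 232, 209 and 228 with IFNγ, 217, 237 and 282 with IFNβ, and 253, 258 and 253 with STING agonist. IFNγ lowered it to 0.854 of vehicle (log2 -0.23, SE 0.0549, adjusted p 0.000345), the only decrease called among the 9 genes against vehicle. With IFNβ the libraries overlapped vehicle and the log2 fold change of -0.08 (adjusted p 0.332) was called without the third IFNβ library, the highest of the 3 (-0.19, adjusted p 0.0022). In 6694c2 the values were 91.3, 102 and 104 CPM with vehicle, 104, 92.5 and 109 with IFNγ, 111, 113 and 122 with IFNβ, and 116, 109 and 106 with STING agonist, with the IFNβ and STING agonist libraries above vehicle. IFNβ raised Bax there 1.19-fold (log2 0.25, SE 0.0726, adjusted p 0.00906), a call that was lost without the first vehicle library (adjusted p 0.0585) or the third IFNβ library (0.0503), with log2 fold changes of 0.20 and 0.21. With IFNγ its log2 fold change was 0.06 (95% confidence interval -0.09 to 0.21). Of its exonic bases 12.2% are shared with Gm45808 on the same strand, which had 0 reads in all libraries.

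Bcl2l1, which encodes BCL-XL (ENSMUSG00000007659, chr2:152780668-152831728, minus strand), was the 1 pro-survival gene among the 9 and rose modestly in 6694c2. Its levels in that line were 133, 136 and 141 CPM with vehicle, 182, 182 and 191 with IFNγ, 160, 180 and 161 with IFNβ, and 165, 151 and 159 with STING agonist, so that all treated libraries lay above vehicle. The changes were 1.37-fold with IFNγ (log2 0.45, SE 0.067, adjusted p 1.41e-06) and 1.25-fold with IFNβ (log2 0.32, SE 0.0668, adjusted p 0.000303). With STING agonist the log2 fold change of 0.21 (95% confidence interval 0.08 to 0.35) was not called (adjusted p 0.258). In B16F10 it was at 89.7, 96.5 and 88.5 CPM with vehicle, 93.9, 87 and 91 with IFNγ, 101, 107 and 102 with IFNβ, and 86.7, 86.9 and 92.6 with STING agonist. IFNβ raised it 1.13-fold (log2 0.18, SE 0.0605, adjusted p 0.0155). That call was lost when only the compared groups were fitted (0.17, adjusted p 0.0584), without the first (0.16, 0.0859) or the third (0.16, 0.101) vehicle library, and without the second IFNβ library (0.15, 0.0973).

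The levels of Bak1, Bax and Bcl2l1 were also compared within each library, per kilobase of exon. The ratio of Bak1 to Bcl2l1 was 3.18 ± 0.2 in B16F10 vehicle, 5.59 ± 0.18 with IFNγ and 3.03 ± 0.142 with IFNβ, and 1.05 ± 0.072 in 6694c2 vehicle, 2.2 ± 0.0737 with IFNγ and 1.54 ± 0.176 with IFNβ (mean ± SD, n = 3). With STING agonist it was 3.13 ± 0.194 in B16F10, overlapping vehicle, and 0.911 ± 0.0208 in 6694c2. There the STING agonist libraries all lay below vehicle (0.888 to 0.928 against 0.973 to 1.11). The lowest Bak1 to Bcl2l1 ratio in a B16F10 library, 2.87, was above the highest in a 6694c2 library, 2.28. The ratio of Bax to Bcl2l1 was 8.33 ± 0.847 in B16F10 vehicle, 7.16 ± 0.158 with IFNγ and 6.92 ± 0.981 with IFNβ, and 2.11 ± 0.104 in 6694c2 vehicle, 1.61 ± 0.11 with IFNγ and 2.02 ± 0.185 with IFNβ. The IFNγ libraries all lay below vehicle in 6694c2 (1.48 to 1.67 against 1.99 to 2.19) and in B16F10 (6.99 to 7.3 against 7.35 to 8.85). With STING agonist the Bax to Bcl2l1 ratio was 8.37 ± 0.365 in B16F10 and 2.03 ± 0.0808 in 6694c2. The IFNβ and STING agonist libraries overlapped vehicle in both lines. Bax exceeded Bak1 in all B16F10 groups, with a Bak1 to Bax ratio from 0.374 ± 0.0085 with STING agonist to 0.78 ± 0.0391 with IFNγ, and 6694c2 with IFNγ was the 1 group with more Bak1 than Bax (1.38 ± 0.0702). These are ratios of transcripts, and no test was run on them beyond those of the genes themselves.

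**Figure D3:**
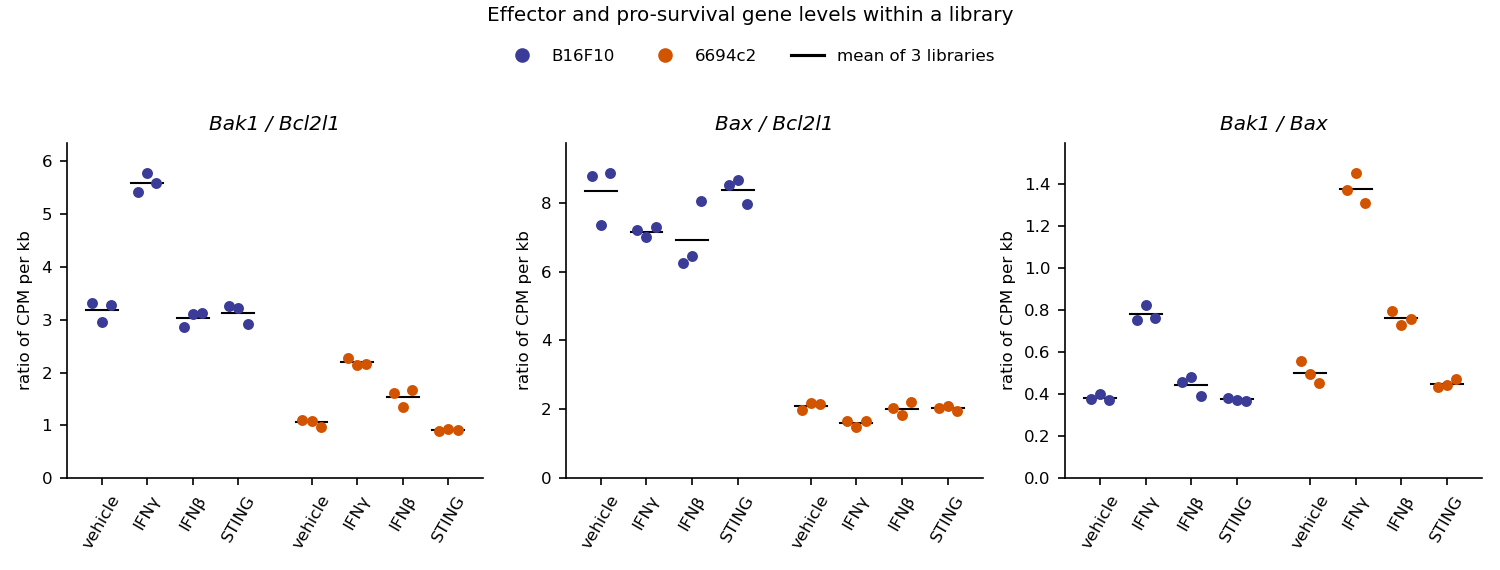
Ratios of CPM per kilobase of exon within each library: Bak1 to Bcl2l1 (left), Bax to Bcl2l1 (middle) and Bak1 to Bax (right), on linear axes from 0, with the group mean of 3 libraries as a black line. IFNγ groups hold the highest Bak1 to Bcl2l1 ratio of each line, 5.59 in B16F10 and 2.2 in 6694c2.

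Untreated differences between the lines covered 7 of the 9 genes, in a comparison in which 58% of all genes were called (28.7% higher and 29.3% lower in 6694c2). Higher in 6694c2 vehicle than in B16F10 vehicle were 4 of 9: Pmaip1, Bcl2l11 (log2 1.11, adjusted p 3.15e-10), Tnfrsf10b (1.05, 3.24e-16) and Bcl2l1 (0.58, 3.5e-11). Lower in 6694c2 were 3 of 9: Xaf1, Bax (-1.40, 8.17e-20) and Bak1 (-1.01, 2.01e-18). Fas and Tnfsf10 were not called (log2 -0.60 and 0.20), with confidence intervals of -1.89 to 0.68 and -1.44 to 1.83 that the few reads leave wide. Of the p53 genes given as context, Trp53 was at 102 CPM in B16F10 and 203 CPM in 6694c2 vehicle, Cdkn1a at 542 and 21.9, and Mdm2 at 177 and 50. Whether p53 activity bears on the 9 genes was not tested.

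The effects of IFNγ differed between the lines for 5 of the 9 genes, beside 9.47% of all genes tested (4.95% with a positive and 4.52% with a negative difference, B16F10 minus 6694c2). All 5 differences were negative: the effect in B16F10 minus that in 6694c2, on the log2 scale, was -3.82 for Fas (SE 0.69, adjusted p 0.000111), -4.04 for Xaf1 (SE 0.16, 1.09e-21), -0.69 for Bak1 (SE 0.0828, 4.74e-08), -0.45 for Bcl2l1 (SE 0.0845, 0.000197) and -0.37 for Tnfrsf10b (SE 0.103, 0.016). The Fas difference was -3.14 without the first B16F10 vehicle library and -4.78 without the first 6694c2 vehicle library. Bcl2l11 gave -0.45 (adjusted p 0.0986) and Bax -0.27 (adjusted p 0.109), neither called. Bcl2l11 was called without the second B16F10 IFNγ library (-0.60, adjusted p 0.032), and Bax without the second B16F10 vehicle library (-0.36, 0.0322) or the second 6694c2 IFNγ library (-0.33, 0.0411), and with DESeq2 (-0.30, 0.0387). Fitting the compared groups alone called both, at -0.52 (0.0407) and -0.34 (0.0175). For IFNβ 3 of 9 differed (12.1% of all genes, 5.9% positive and 6.16% negative), all negative: Xaf1 (-5.29, SE 0.154, adjusted p 9.68e-27), Bak1 (-0.72, SE 0.0832, 2.69e-08) and Bax (-0.31, SE 0.104, 0.0456). For Bax the adjusted p was 0.0902 with the compared groups alone, and 0.0752, 0.134 and 0.114 without the first B16F10 IFNβ library, the first 6694c2 vehicle library or the third 6694c2 IFNβ library. Bcl2l11 was called without the first B16F10 IFNβ library (-0.55, adjusted p 0.0399). Tnfsf10 gave a difference of -0.14 with IFNγ, with a confidence interval of -2.05 to 1.77, and -1.14 with IFNβ (-2.91 to 0.62), so its induction cannot be ranked between the lines. For the STING agonist 1 of 9 differed (2.12% of all genes, 1.56% positive and 0.568% negative): Xaf1, whose effect was 1.16 larger in B16F10 (SE 0.239, adjusted p 0.00245). Without the second 6694c2 vehicle library this difference was 0.98 and no longer called (adjusted p 0.0608).

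**Figure D4:**
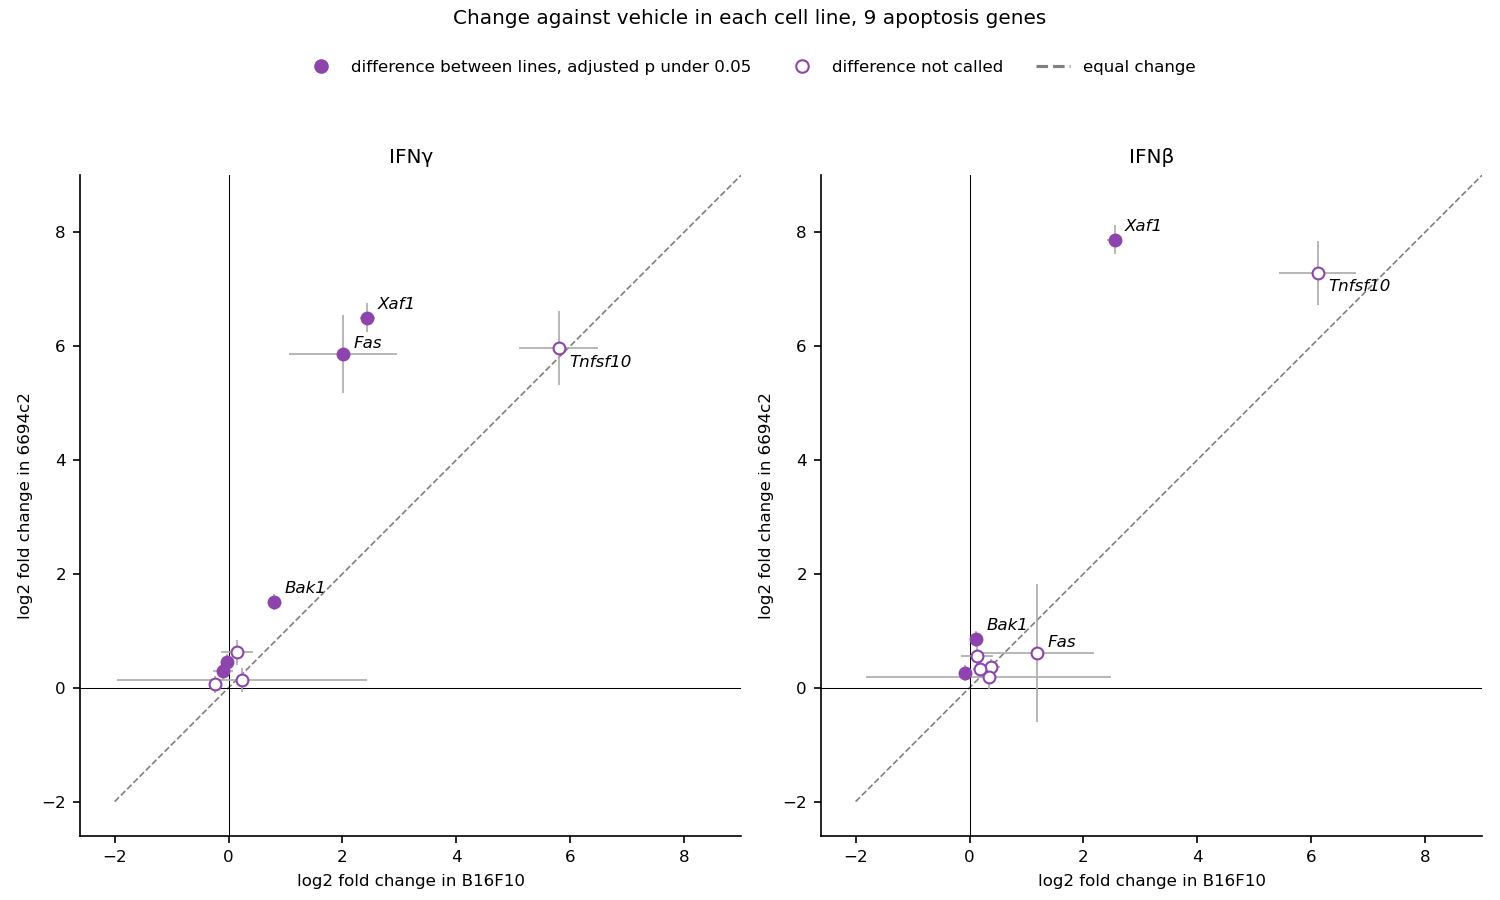
Log2 fold change against vehicle in 6694c2 (vertical) and B16F10 (horizontal) for IFNγ (left) and IFNβ (right), with 95% confidence intervals; filled points differ between the lines at an adjusted p under 0.05 and the dashed line marks equal change. Xaf1 and, with IFNγ, Fas lie well above the line, and Tnfsf10 lies near it, with differences that were not called.

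The 2 interferons, compared directly, divided the genes. IFNβ exceeded IFNγ for Tnfrsf10b (log2 0.47, adjusted p 9.88e-07) and Bcl2l1 (0.20, 0.0109) and fell below it for Bak1 in B16F10, a comparison in which 14.5% of all genes were called (6.65% higher with IFNβ, 7.85% lower). The Bcl2l1 call there was lost without the second IFNγ library (0.17, adjusted p 0.0742) or the second IFNβ library (0.16, 0.0955). In 6694c2, with 13.9% of all genes called (7.3% higher, 6.57% lower), Tnfsf10 and Xaf1 were higher with IFNβ, and Fas and Bak1 were higher with IFNγ. Bax was just short of a call in both lines, at 0.15 (adjusted p 0.0506) in B16F10 and 0.20 (0.0636) in 6694c2. It was called without the first B16F10 IFNβ library (0.22, 0.000841) and without the third 6694c2 IFNγ library (0.25, 0.0333). These comparisons share their interferon libraries with those against vehicle.

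The wider pathway was read from 61 genes in 8 lists, of which 57 were tested and 48 were not among the 9. Of the 48, 16 rose and 3 fell with IFNγ in B16F10 (12% and 10.8% of all genes), 12 rose and 3 fell with IFNβ (12.7% and 11.2%), and 4 rose and 0 fell with STING agonist (1.93% and 1.53%). In 6694c2 the counts were 6 and 4 with IFNγ (7.89% and 5.66% of all genes), near the shares of all genes, 10 and 3 with IFNβ (10.4% and 7.86%), and 0 and 0 with STING agonist (0.203% and 0.156%), where 5 and 2 had an unadjusted p under 0.05. Their median log2 fold change was 0.12, 0.09 and 0.04 in B16F10 and 0.05, 0.12 and 0 in 6694c2.

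By role, and leaving out the 9, the counts are small and stand beside 12% (IFNγ) and 12.7% (IFNβ) of all genes higher in B16F10 and 7.89% and 10.4% in 6694c2, so that 1 gene of a list is near the background. The death receptor list without the 9 holds Tnfrsf1a, Tnfrsf25 and Tnfrsf21, and the decoy receptors Tnfrsf22, Tnfrsf23 and Tnfrsf11b. The list for the complex that assembles at such receptors also holds the apoptosis inhibitors Faim and Faim2. With IFNγ and IFNβ in B16F10, 4 and 3 of the 6 on the receptor list rose, and 3 and 2 of the 8 on the complex list. Of 7 BH3-only genes, 3 and 2 rose. IAP genes and their antagonists gave 5 and 4 higher and 1 and 2 lower of 9. In 6694c2 the receptor list gave 1 and 3 higher, and the complex list 2 and 1 higher and 1 and 0 lower. The 1 lower gene was Faim2, with 11 reads in vehicle and 0 with IFNγ. In the same line the BH3-only genes gave 1 and 2 higher, and the IAP list 1 and 1 higher. Of 5 other pro-survival genes, 0 rose and 1 fell with IFNγ in each line, and with IFNβ 0 rose and 0 fell in B16F10 and 1 rose and 1 fell in 6694c2. Among 5 other death ligands edgeR called 0 in either line with any treatment, and 1 had an unadjusted p under 0.05, with IFNγ in 6694c2.

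Bid, which links caspase-8 to BAX and BAK, rose with IFNγ by 1.14 in B16F10 and 1.17 in 6694c2 (adjusted p 1.95e-40 and 3.6e-16). Tnfrsf1a, the TNF receptor, went from 101 to 294 CPM with IFNγ in 6694c2 (log2 1.55, adjusted p 5.04e-23). In B16F10 its mean also went up with IFNγ, from 128 to 244 CPM. Naip2 rose by 1.01 with each interferon in B16F10 (adjusted p 2.98e-09 and 3.43e-09). In 6694c2 the summed Naip2 reads were 914 with vehicle, 1748 with IFNγ and 2474 with IFNβ. These sums are not scaled for depth, which was greater in the interferon groups. Neither rise is therefore shown to be particular to 1 line.

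Of the inhibitors, Cflar, which blocks caspase-8 at the receptor, was chosen after its values were seen, as were Birc2 and Bcl2. Cflar went from 48.6 CPM in B16F10 vehicle to 97.4 with IFNγ and 92.5 with IFNβ, and stood at 27.4, 30.8 and 29 CPM in 6694c2. Its effects were larger in B16F10 by 0.83 with IFNγ and 0.85 with IFNβ on the log2 scale (adjusted p 3.38e-06 and 2.31e-06). Birc2, which encodes cIAP1, showed the same direction of difference, 0.83 and 0.94 (adjusted p 1.51e-05 and 1.58e-06). The pro-survival gene Bcl2 fell in 6694c2 with IFNγ (log2 -0.44, adjusted p 0.00168) and IFNβ (-0.69, 1.1e-06), whereas in B16F10 it gave 0.07 and -0.07, neither called.

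Several named genes of the lists rest on few reads. Tnfrsf21 and Tnfrsf23 were called higher with STING agonist in B16F10 (log2 2.28 and 1.54, adjusted p 0.00115 and 0.0376), but their 71 and 54 reads compare with 73.6 and 19.4 expected from 6694c2, where both are abundant. With the share of the other line subtracted neither was called (adjusted p 0.663 and 0.264), and Cycs (0.25) and Birc2 (0.38) still were. Tnfrsf23 was also called higher with IFNγ (1.2, adjusted p 0.0492) and IFNβ (1.46, adjusted p 0.00915) in B16F10, with 53 and 67 reads against 23 in vehicle, of which 7.84, 10.5 and 5.72 were expected from 6694c2, and its IFNγ effect was larger there by 1.26 (adjusted p 0.0241). Faim2 had 11 reads in 6694c2 vehicle and 0 with IFNγ. That is 4.54-fold lower over the group when the 0 is set to a floor of 3 reads and the 11 is taken as found. Hrk had 13 reads in B16F10 with IFNβ and 0 with IFNγ, 4.09-fold higher by the same floor. Between vehicle cells, Bok (log2 7.17) and Tnfrsf21 (9.11) were higher in 6694c2. Of the B16F10 vehicle reads, 28.8 of 93 for Bok were expected from 6694c2, and for Tnfrsf21 21.7 were expected beside 18 found, so its value sets 6694c2 against a level no higher than that share. In the same comparison Septin4 (-4.03), Apaf1 (-1.21) and Cycs (-1.14) were lower in 6694c2.

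**Figure D5:**
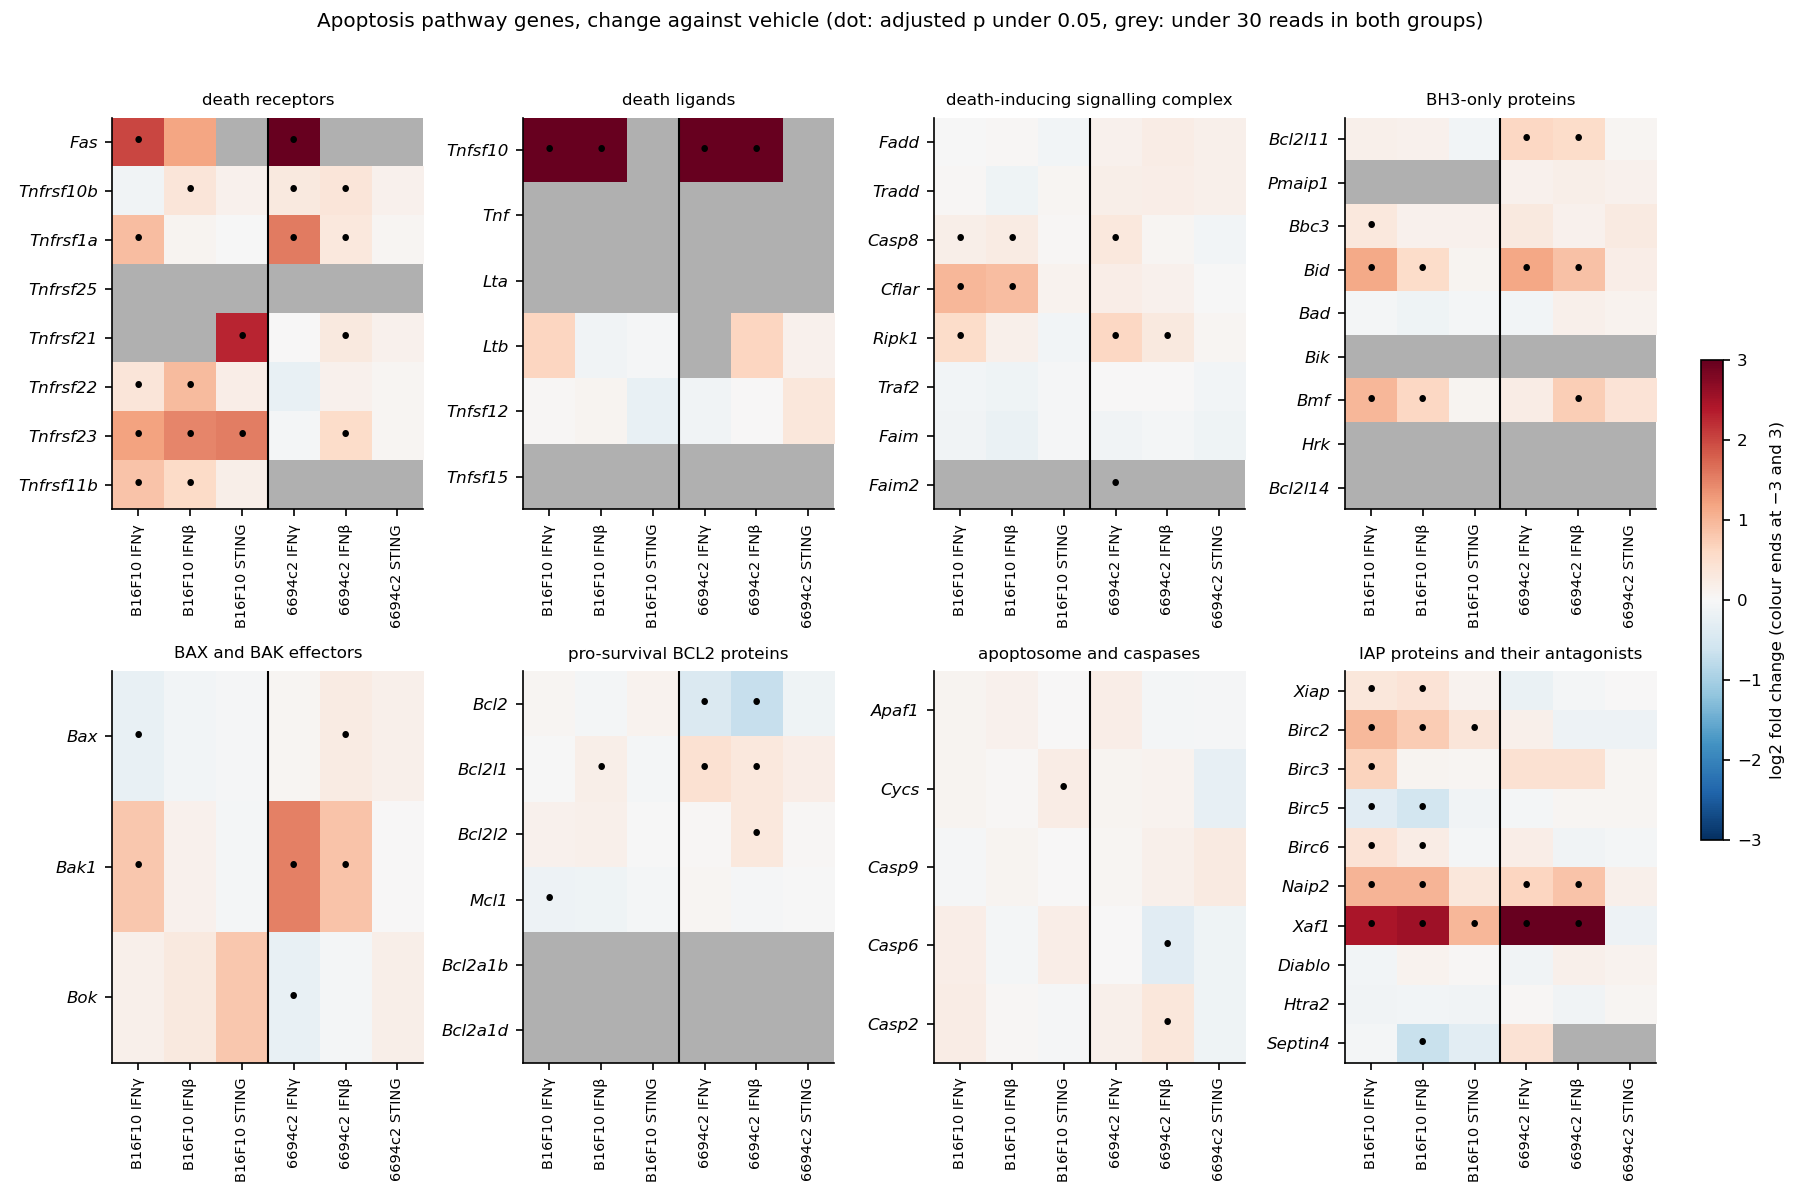
Log2 fold change against vehicle of 55 tested genes of the 8 lists (rows) in 6 comparisons (columns), in red where higher and blue where lower, with the colour ending at -3 and 3; dots mark an adjusted p under 0.05 and grey marks fewer than 30 reads in both groups. The dots lie mostly in the interferon columns, and Tnfsf10, Xaf1 and Bid are marked with both interferons in both lines.

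The genes most like each of the 9 were found by Pearson's r of log2 CPM over the 24 libraries, after the mean of each line was subtracted, among 10482 or 10483 genes. These values describe libraries that share treatments and depth. Fas was most like C1s1 (0.976), Serpina3f (0.967) and Ecscr (0.962). Tnfsf10 was most like Oas3 (0.991), H2-D1 (0.991) and Ifi203 (0.989), and Xaf1 was most like Rtp4 (0.996), Irf9 (0.993) and Bst2 (0.984). Bak1 was closest to Psmb8 (0.984) and Rbck1 (0.974). Lower values were found for Bcl2l11 with Prkd2 (0.89), Fmnl2 (0.878) and Zfp281 (0.877), for Tnfrsf10b with Rhbdf2 (0.873), Zfp839 (0.819) and Trim11 (0.81), and for Bax with Arpp19 (0.855), Xrcc1 (0.828) and Lsm7 (0.823). Bcl2l1 reached 0.835 with Ltbr, 0.831 with Arhgef10l and 0.807 with Poldip3, and Pmaip1 no more than 0.649, with Cnppd1, followed by Dolk (0.637) and Tmem238 (0.636). Among the 9 themselves, Tnfsf10 and Xaf1 had an r of 0.92, Fas and Bak1 of 0.82, and Fas and Tnfsf10 of 0.43.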

How the data were processed

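Bulk RNA of 24 libraries was analysed; 6 single-cell samples were not used here. The authors trimmed reads with cutadapt, used STAR to align them and Rsubread to count them by gene, and the deposited values are those raw counts; mm10 is listed in the submitters' processing notes, and annotation, strand setting and multi-mapping are not given in the sources used here. Of 49056 genes also in GENCODE M21 (GRCm38), 91.4% have the same span; coordinates are those of the counts. Counts were tested with edgeR 4.0.16 in R 4.3.3: TMM, at least 10 reads combined, glmQLFit on group means (each line by itself, and all 24 libraries for differences between lines), Benjamini-Hochberg adjustment over 21138 genes, threshold 0.05. The method was tested on simulated data. Alternatives were RLE size factors, DESeq2 1.42.0, 2 other filters, a robust fit, a replicate block, only the groups compared, subtraction of the other line's share (median over genes at 50 CPM or more in one line and at most 2% of that in the other), and each library left out. Named genes were the 9; in each comparison, of the other list genes past a log2 change of 1, the 3 of smallest p per direction; and the 3 most alike genes, at 1 CPM or more in both lines. The 9 genes and the lists were chosen with earlier results of these data known. Results of a few items are not reported here. Intervals of fold changes are those of the edgeR fit and include the spread between libraries. Floors of 3 reads cover only the counting error of a group at 0 reads.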

Additional observations from a re-analysis of the deposited data

Results flagged for a closer look

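For 9 results the effect of a treatment differed between B16F10 and 6694c2 by the test of the difference itself (edgeR, effect in B16F10 minus effect in 6694c2, log2 scale). With IFNγ these were Fas (-3.82, adjusted p 0.000111), Xaf1 (-4.04, adjusted p 1.09e-21), Bak1 (-0.69, adjusted p 4.74e-08), Bcl2l1 (-0.45, adjusted p 0.000197) and Tnfrsf10b (-0.37, adjusted p 0.016). With IFNβ they were Xaf1 (-5.29, adjusted p 9.68e-27), Bak1 (-0.72, adjusted p 2.69e-08) and Bax (-0.31, adjusted p 0.0456). With STING agonist it was Xaf1 (1.16, adjusted p 0.00245), the 1 result of the 9 in which the effect was larger in B16F10. Fas in vehicle cells rests on 19 reads in B16F10 and 9 in 6694c2, so the size of its difference is uncertain, with a 95% confidence interval of -5.22 to -2.42.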

How the results depend on the processing

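Over 1665 repeats of the 108 fold changes of the 9 genes under the alternatives, 1635 kept their call, 13 lost a call, 17 gained one and 0 of the called values reversed. Of 270 repeats of the 18 counts of calls, 263 stayed within 1.5 times. The list genes called with STING agonist in B16F10 went from 5 to 3 with the share of the other line subtracted. When single libraries were left out they numbered between 3 and 5 (3 without the first or the third vehicle library, or the first or the third STING agonist library). The genes of the 9 whose STING agonist effect differed between the lines went from 1 to 2 with DESeq2, which added Bcl2l1 (-0.24, adjusted p 0.0365). When single libraries were left out they numbered 1 or 0 (0 without the second 6694c2 vehicle library). Replicate numbers did not pair the samples: same-numbered libraries had correlations of their deviations from -0.145 to 0.164 in B16F10 and -0.221 to 0.203 in 6694c2. A replicate block added a call for Bax in B16F10 with IFNβ against IFNγ (0.14, adjusted p 0.0331) and changed no other call of the 9 genes. DESeq2 gave no adjusted p for Pmaip1 in B16F10 or for Fas in the STING agonist difference. Fas, Tnfsf10 and, in B16F10, Pmaip1 are limited by depth, with at most 19 reads per vehicle group.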
